A study of Arabidopsis thaliana with 12 samples.

Results

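The cytosolic ribosomal protein genes described here are 51 nuclear genes of Arabidopsis thaliana, chosen by gene identifier as 1 RPL3 gene (AT1G43170) and 50 paralogues of 20 families. Family and paralogue refer below to these genes alone, and some of the families have further genes that are not among them. All 51 were found among the 32743 genes of the count tables, of which 32548 are nuclear. RNA was sequenced from leaves of plants aged 35 days of the wild type (WT, Col-0) or of otp90, a line with a T-DNA insertion in OTP90 (AT1G25360). OTP90 encodes a pentatricopeptide repeat protein that acts in RNA editing, and the mutant was represented by 1 insertion line. The labels name 2 extracts, Mito and Total, and 3 replicates for each combination of extract and genotype, so the 4 groups are Mito WT, Mito otp90, Total WT and Total otp90, with 12 libraries in all. All plants were grown in long days and received no treatment. The labels do not say how the Mito extract was made, so both words stand only for the library type.

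The cytosolic ribosome translates the messages of nuclear genes, and it is built of a large and a small subunit, each of ribosomal RNA and many proteins, most of them present in equal numbers. In Arabidopsis almost every one of these proteins is encoded by several nuclear paralogues whose coding sequences are much alike, so a measurement of paralogues asks both how much of the family is made and which gene it comes from. The messages are short and abundant, and their genes are known for promoters that share a telo-box and site II elements, and for activity in growing and dividing tissue. Of the 51 genes, 30 in 13 families encode proteins of the large subunit (RPL3 to RPL27A and the stalk proteins RPP0 and RPP1) and 21 in 8 families encode proteins of the small subunit (RPSA and RPS2 to RPS18).

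Mito libraries held 24660745 to 32418348 counts and Total libraries 49434596 to 60464017. The smallest number of counts of any of the 51 genes in any library was 44 (AT2G40010) and the largest 14251 (AT1G43170), so all were far above the floor of 3 counts, which covers counting error only. Mitochondrial genes took 2.89 to 5.16% of counts in Mito libraries and 0.959 to 1.19% in Total libraries. OTP90 had 6 to 20 counts in every library and its WT and otp90 values overlapped in both extracts, so its count did not check the genotype labels. Nothing in the labels says that replicates came from separate plants, so p-values measure the spread between these libraries. The 3 Total otp90 libraries stood apart from one another in these genes. All 51 genes had their highest value of that group in replicate 2 and their lowest in replicate 3, whereas over 16639 tested nuclear genes replicate 2 was the highest for 31.5% and replicate 3 the lowest for 36.4%. Medians and numbers of calls that rest on Total otp90 are therefore also given without single libraries of that group.

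The 51 genes lay among the most abundant nuclear transcripts of the leaf. In the mean of 12 libraries, 43 of them were above the 80th percentile of tested nuclear genes in CPM per kb of exon, where CPM is the count scaled to library size with TMM normalisation. RPL3, whose protein lies near the peptidyl transferase centre of the large subunit, had the highest level. It was measured at 167.1, 176.1 and 177.9 CPM per kb in the Mito libraries of WT, at 190.5, 194.8 and 189.1 in those of otp90, at 156.3, 162.9 and 154.7 in the Total libraries of WT, and at 128.5, 158.6 and 108.7 in those of otp90. The next levels were those of AT3G09200 (RPP0, the base of the ribosomal stalk), with a mean of 130.9 CPM per kb, and of AT1G72370 (RPSA, also named P40), with 116.8. Their ranges over libraries overlapped, at 108.7 to 194.8 for RPL3, 101.7 to 148.9 for AT3G09200 and 93.5 to 132.2 for AT1G72370. Alignments opened no intron, so levels per kb depend on how exons divide a gene. Windows of 75 bases inside exons numbered 0.745 per base in RPL3, 0.75 in AT3G09200, 0.713 in AT1G72370 and 0.515 in AT3G11510 (RPS14). Genes of different families were not ranked per window. The highest paralogue was the same per window in all 20 families. Only 6 genes were below the 60th percentile. Among them were AT2G40010 (RPP0) at 1.10 CPM per kb, AT3G04770 (RPSA) at 1.51, AT1G26910 (RPL10) at 3.45, AT2G42740 (RPL11) at 4.23 and AT3G57490 (RPS2) at 4.95.

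Paralogues of a family were thus used very unequally in some families and nearly equally in others. In RPSA, AT1G72370 was 77.5 times as high per kb as AT3G04770, and its share of the family was 98.4 to 99.2% in the 12 libraries. In RPL10, which contributes a protein close to the catalytic centre, AT1G14320 (SAC52) was 29.2 times as high as AT1G26910, with 95.8 to 97.4% of the 2 genes together. AT1G66580, a further RPL10 gene, is not among the 51. In RPP0 the share of AT3G09200 was 91.7 to 93.4%. At the other end, AT5G10360 and AT4G31700 of RPS6, a phosphorylated protein of the small subunit that is a target of TOR signalling, differed by 1.12 times, and the order of the pair held in 11 of 12 libraries. AT3G25520 and AT5G39740 of RPL5, a protein that binds 5S ribosomal RNA, differed by 1.19 times, in the same order in all 12 libraries. AT5G02870 and AT3G09630 of RPL4 differed by 1.20 times, also in all 12.

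In further families the highest paralogue per kb was AT2G01250 in RPL7 (83.1 CPM per kb), AT2G18020 in RPL8 (96.6), AT4G18730 in RPL11 (61.6) and AT3G05590 in RPL18 (71.7). It was AT2G39460 in RPL23A (37.9), AT3G53020 (STV1) in RPL24 (36.3), AT1G23290 in RPL27A (60.9) and AT1G01100 in RPP1 (61.1). Among small subunit families it was AT2G41840 in RPS2 (45.4), AT3G53870 in RPS3 (93.1), AT3G11510 in RPS14 (88.5) and AT4G09800 (RPS18C) in RPS18 (71.1). The 24 lower paralogues at or above the 60th percentile had means of 7.28 (AT1G58380, RPS2) to 89.98 (AT4G31700, RPS6) CPM per kb. In 19 of 20 families the highest paralogue was above the next in all 12 libraries, and RPS6 was the exception. Lower in the order, 2 neighbours changed places between libraries. AT4G00810 was above AT5G47700 (RPP1) in 8 of 12 libraries, and AT1G34030 was above AT1G22780 (PFL, RPS18) in 9 of 12.

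**Figure D1:**
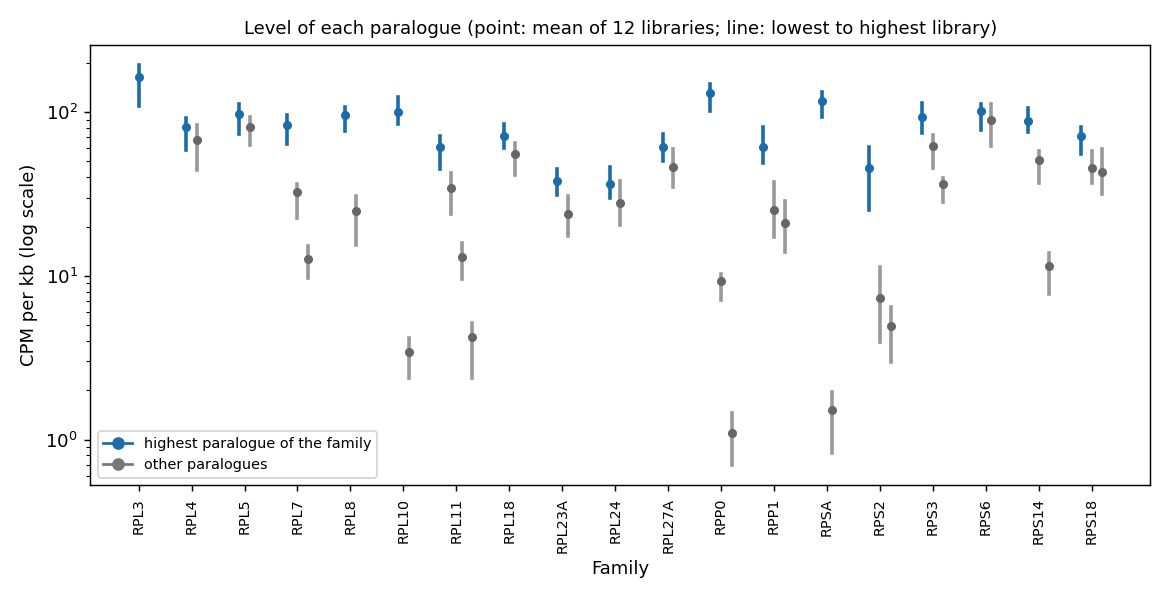
Level of the genes in CPM per kb of exon on a log scale, by family; points are means of 12 libraries and lines run from the lowest to the highest library. Levels run from 1.10 (AT2G40010) to 163.8 (RPL3), and in RPSA, RPL10 and RPP0 the highest paralogue stands far above the others.

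How far such paralogues can be told apart depends on their sequences, since reads that matched several genes equally well were counted in each. The sequences below are shown for this reason. They are the first 113 coding bases of the 4 RPL11 genes (RPL11, like RPL5, binds 5S ribosomal RNA), from the TAIR10.1 genome with RefSeq coding sequences, 5′ to 3′, and capitals mark bases that differ from AT2G42740. AT2G42740 lies on chromosome 2 (17791692 to 17793142, plus strand), AT3G58700 on chromosome 3 (21711445 to 21713104, plus), AT4G18730 on chromosome 4 (10302163 to 10303432, plus) and AT5G45775 on chromosome 5 (18564992 to 18566582, minus).
AT2G42740: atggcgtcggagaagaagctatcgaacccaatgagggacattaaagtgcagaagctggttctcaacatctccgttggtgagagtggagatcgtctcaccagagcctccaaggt
AT3G58700: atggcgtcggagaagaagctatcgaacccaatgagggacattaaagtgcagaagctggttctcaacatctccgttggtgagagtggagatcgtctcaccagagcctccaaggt
AT4G18730: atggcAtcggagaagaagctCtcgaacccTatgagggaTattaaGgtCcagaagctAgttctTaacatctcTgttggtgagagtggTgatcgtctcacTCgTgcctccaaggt
AT5G45775: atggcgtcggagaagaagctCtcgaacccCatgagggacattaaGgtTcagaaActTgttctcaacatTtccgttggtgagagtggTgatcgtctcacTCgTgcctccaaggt
The stretch is identical in AT2G42740 and AT3G58700, the longest identity between coding sequences of any pair among the 51 genes, whereas AT4G18730 has 13 differences and AT5G45775 has 11. Over the whole coding sequence of 549 bases AT2G42740 and AT3G58700 were 91.1% identical. Reads were 75 bases long, and 6.69% of the 75-base windows inside exons of AT2G42740, and 4.76% of those of AT3G58700, occurred in both genes.

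RPL11 was close to an extreme. Coding identity between paralogues ran from 78.0% (AT2G40010 and AT3G11250 of RPP0) to 93.2% (AT1G01100 and AT5G47700 of RPP1), and 46 of the 51 genes shared no 75-base window with any other place in the genome. The exceptions beside the RPL11 pair were AT5G39740 (4.24% of its windows), AT1G14320 (2.48%) and AT1G58380 (XW6, RPS2). AT1G58380 shared 19.2% of its windows with 3 further RPS2 genes outside the 51, AT1G58684, AT1G58983 and AT1G59359, so its values are uncertain. In RPS18 even the start of the coding sequence separates the genes. The first 75 coding bases are shown because this family had the largest shift of paralogue shares between extracts with all libraries, and capitals mark differences from AT4G09800 (chromosome 4, 6173712 to 6175200, plus). AT1G22780 lies on chromosome 1 (8067864 to 8069356, plus) and AT1G34030 on chromosome 1 (12370065 to 12371554, minus).
AT4G09800: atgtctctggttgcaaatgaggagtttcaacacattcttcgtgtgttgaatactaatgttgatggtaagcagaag
AT1G22780: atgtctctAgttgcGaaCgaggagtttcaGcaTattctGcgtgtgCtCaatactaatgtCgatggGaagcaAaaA
AT1G34030: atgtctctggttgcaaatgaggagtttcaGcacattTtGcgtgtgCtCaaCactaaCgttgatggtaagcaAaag
AT1G22780 differs from AT4G09800 at 12 of these 75 bases and AT1G34030 at 8.

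Promoters of the 51 genes were searched for the elements named above, from 250 bases before to 50 bases after the RefSeq start of the gene, on both strands. The telo-box AAACCCTA was found in 21 of 51 promoters (41.2%) and in 6.2% of 27443 promoters of nuclear protein-coding genes. The site II letters TGGGCC were found in 37 (72.5%, against 15.5% of all promoters) and TGGGCT in 27 (52.9%, against 14.2%). Matches on opposite strands can overlap and were each counted. Of the 51 promoters, 41 (80.4%, against 21.7%) held either site II form, 17 (33.3%, against 2.2%) held a telo-box and either site II form, and 6 (11.8%, against 74.3%) held none of the 3. Among 16331 promoters of tested genes, 5.6% held the telo-box, 20.4% TGGGCC, 17.6% TGGGCT and 27.2% either site II form. A match is a description of letters and not a measured binding site. Of 166 other cytosolic ribosomal protein genes, 52.4% held the telo-box and 75.9% either site II form.

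The 150 bases before the start are printed for 3 genes, chosen after their matches were known to show stretches with both elements, with site II alone and with neither, with matches to any of the 3 elements in capitals on either strand. They are AT2G36160 of RPS14 (chr2:15169668-15169817, plus strand), RPL3 (chr1:16266403-16266552, plus) and AT3G13580 of RPL7 (chr3:4432897-4433046, plus), on TAIR10.1. No annotated exon of the count tables lies in these stretches.
AT2G36160: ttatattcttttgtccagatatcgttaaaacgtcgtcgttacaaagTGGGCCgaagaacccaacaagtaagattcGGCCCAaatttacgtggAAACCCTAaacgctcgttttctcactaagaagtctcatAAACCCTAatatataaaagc
AT1G43170: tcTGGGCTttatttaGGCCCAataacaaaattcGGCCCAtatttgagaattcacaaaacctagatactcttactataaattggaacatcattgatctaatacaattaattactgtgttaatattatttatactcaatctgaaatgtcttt
AT3G13580: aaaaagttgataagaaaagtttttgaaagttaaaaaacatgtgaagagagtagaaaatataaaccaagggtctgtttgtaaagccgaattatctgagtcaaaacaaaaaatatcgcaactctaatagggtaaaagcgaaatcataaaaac
AT2G36160 has 2 matches to TGGGCC and 2 telo-boxes in these bases, RPL3 has 3 site II matches and no telo-box, and AT3G13580 has none. AT3G13580 was also the lowest paralogue of its family, with a mean of 12.6 CPM per kb. Other genes without a match in the whole window included AT3G11510 and AT2G39460, the highest paralogues of RPS14 and RPL23A, and AT3G04770, the lower one of RPSA.

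Summed over the 51 genes, counts were 0.728, 0.781 and 0.752% of nuclear counts in the Mito libraries of WT and 0.804, 0.801 and 0.782% in those of otp90. In Total libraries they were 0.763, 0.847 and 0.713% in WT and 0.600, 0.766 and 0.543% in otp90. Mito otp90 was above Mito WT without overlap (0.796% ± 0.0115 against 0.754% ± 0.0267, SD, n = 3), but as shares of all counts they overlapped (0.377 to 0.393% against 0.349 to 0.396%). Mito WT and Total WT overlapped (Total WT 0.774% ± 0.0676, SD, n = 3), and Total otp90 had the lowest mean and the widest spread (0.637% ± 0.116, SD, n = 3). The log2 ratio of mean shares of otp90 over WT in Total was -0.28, -0.44 without Total otp90 replicate 2 and -0.18 without replicate 3. In bulk RNA, fewer cells of a type and less RNA per cell cannot be told apart.

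**Figure D2:**
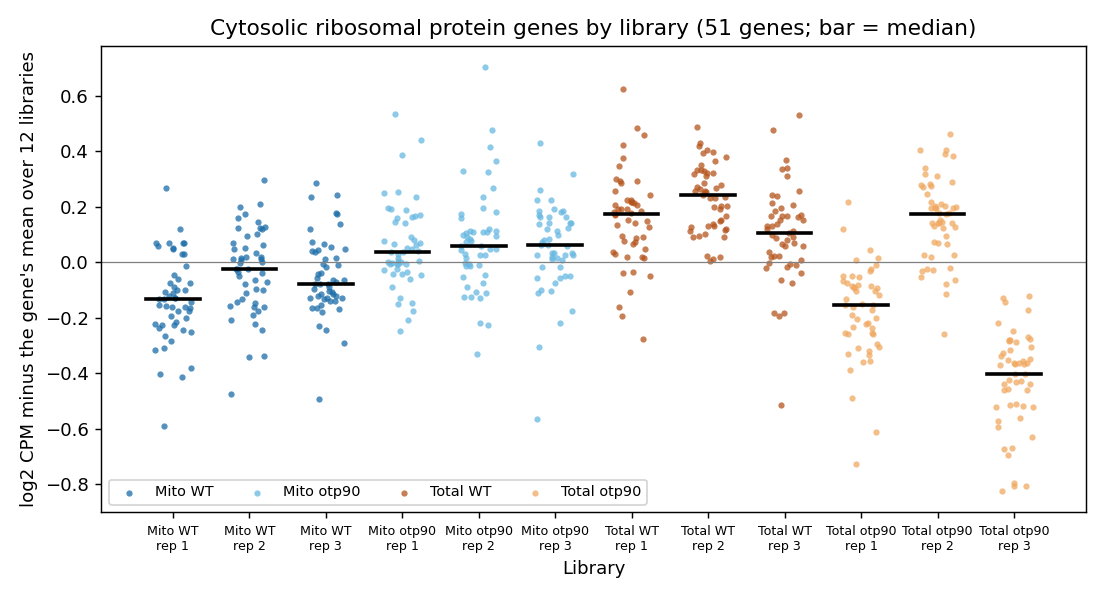
Log2 CPM of each of the 51 genes minus that gene's mean over 12 libraries, by library; points are genes and bars are medians. The medians of Total otp90 lie at -0.16, 0.17 and -0.40 in replicates 1, 2 and 3, while those of Mito otp90 lie between 0.04 and 0.06.

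Mito was compared with Total in WT to ask which of these transcripts the extracts separate. None of the 51 genes was higher in Mito and 22 were lower at an adjusted p under 0.05 (edgeR quasi-likelihood test, Benjamini-Hochberg adjustment over 16436 genes), where 22.8% of all tested genes were higher and 20.9% lower. Over the 51 genes the log2 fold change had a median of -0.23, against 0.01 for all tested nuclear genes, and it turned to 0.24 with library size alone, which moved the median of all nuclear genes to 0.48 and left 10 of the 51 genes higher and 1 lower. Directions between extracts are therefore relative to the typical nuclear gene. At an unadjusted p under 0.05, 1 gene was higher and 27 were lower, and DESeq2 called none higher and 26 lower. In 30 genes all Mito WT libraries were below all Total WT libraries and in 2 they were above, against 27.7 and 29.4% of all tested genes. The 22 genes came from both subunits, 13 of 30 from the large and 9 of 21 from the small. Every paralogue was lower in 4 families (RPL10, RPL23A, RPL24 and RPP1), none was in 6 (RPL4, RPL5, RPL8, RPP0, RPS2 and RPSA), and the other 10 families were divided.

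The lowest ratio was that of AT4G00810, one of the RPP1 genes, which encode a flexible acidic protein of the stalk that recruits elongation factors. It had 18.4, 19.2 and 17.3 CPM per kb in Mito WT and 37.4, 32.2 and 35.1 in Total WT, a log2 fold change of -0.93 ± 0.10 (SE, adjusted p = 0.00077 by edgeR). The groups stood well apart. AT2G36620 (RPL24A, whose family acts in reinitiation of translation) had 20.3, 21.4 and 24.6 against 37.8, 35.2 and 34.9 (log2 fold change -0.70 ± 0.10). AT1G22780 (PFL), named after the pointed first leaf of its mutant, had 35.9, 37.5 and 34.6 against 53.9, 59.3 and 53.7 (log2 fold change -0.62 ± 0.09). AT1G01100 (RPP1) and AT1G70600 (RPL27A) followed with log2 fold changes of -0.59 ± 0.08 and -0.58 ± 0.09. The adjusted p of these 5 genes was 0.00344 or smaller in the same edgeR test.

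At the other end no gene passed. AT3G13580 (RPL7) had 13.0, 15.3 and 15.2 CPM per kb in Mito WT and 10.9, 13.2 and 10.96 in Total WT, so the groups overlapped, with a log2 fold change of 0.31 ± 0.12 (adjusted p = 0.0693, edgeR). AT1G58380 (0.16 ± 0.14), RPL3 (0.14 ± 0.09), AT4G09800 (0.09 ± 0.08) and AT3G52580 of RPS14 (0.05 ± 0.13) were the next highest log2 fold changes. The count of 22 depended on single libraries. It was 9, 10 and 10 when Mito WT replicate 1, 2 or 3 was left out, and 20 to 27 when a Total WT library was left out, with 1 gene higher without Total WT replicate 2.

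The same comparison in otp90 gave 7 genes higher and 1 lower in Mito, with 24.8% of 16337 tested genes higher and 22.3% lower. Here the median over the 51 genes was 0.21, against 0.02 for all tested nuclear genes. All Mito otp90 libraries were above all Total otp90 libraries in 12 genes and below them in 1, against 29.8 and 28.8% of all tested genes. Among the higher genes were AT1G58380 and AT2G41840 of RPS2, which lines the path of the message into the small subunit, AT3G09630 (RPL4), RPL3, AT3G13580 (RPL7) and AT3G09200 (RPP0). AT2G41840 had 60.02, 61.6 and 44.5 CPM per kb in Mito otp90 and 33.8, 37.0 and 25.3 in Total otp90. Its groups did not overlap, and the log2 fold change was 0.80 ± 0.18 (adjusted p = 0.0099, edgeR). AT1G58380, whose reads are partly shared, had 10.1, 11.4 and 7.71 against 4.58, 6.63 and 3.95 (log2 fold change 0.96 ± 0.23, adjusted p = 0.0122, edgeR). RPL3 and AT3G09630 each had a log2 fold change of 0.55. AT2G42740 (0.60 ± 0.22) and AT3G04770 (0.56 ± 0.33) were as high but did not pass, with adjusted p of 0.0565 and 0.203 in the edgeR fit.

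The lower gene was again AT4G00810, with 20.4, 19.3 and 20.8 CPM per kb in Mito otp90 and 28.3, 32.2 and 21.98 in Total otp90 (log2 fold change -0.43 ± 0.15, adjusted p = 0.0476, edgeR). Further low values were log2 fold changes of -0.20 ± 0.11 for AT1G01100, -0.12 ± 0.11 for AT1G14320 and -0.09 ± 0.16 for AT1G34030, none of which passed. The numbers of calls depended on single libraries. Without Total otp90 replicate 2 there were 21 genes higher and none lower, without replicate 3 there were 4 higher and 4 lower, and without replicate 1 there was 1 higher and none lower. The median of the 51 was 0.31, -0.02 and 0.12 in these fits. The call of AT4G00810 was lost without any 1 library other than Total otp90 replicate 3 (adjusted p of 0.0788 to 0.168, edgeR), that of RPL3 without Mito otp90 replicate 2 or 3 or Total otp90 replicate 1 (0.0536 to 0.0975), and that of AT1G58380 without Total otp90 replicate 1 (0.0616). Leaving out Mito otp90 replicate 1, 2 or 3 left 5, 4 or 3 genes higher and none lower.

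Exonic length was set beside these ratios, since the 51 genes are short (768 to 1880 bases, median 1177, against 1854 over tested nuclear genes). Among nuclear genes outside the 51, the median log2 Mito over Total ratio in WT was 0.19 for genes over 1600 bases and fell with each shorter bin, to -0.20 at 1300 to 1600, -0.35 at 1100 to 1300, -0.43 at 900 to 1100 and -0.51 at 700 to 900. The 51 genes had the same ordering, with medians of 0.04, -0.08, -0.21, -0.36 and -0.37 in these bins. Of the 22 genes called lower, 21 were under 1300 bases, and of the 29 not called, 16 were. Spearman's rho between ratio and length was 0.48 across the 51 genes and 0.54 across 16255 nuclear genes, which share the same libraries and are no replicates.

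Each gene was then set against nuclear genes of like length in WT. The median difference between a gene and its length bin was 0.10 on the log2 scale, with 34 genes above and 17 below. It was 0.16 without Mito WT replicate 1 and -0.003, with 25 above and 26 below, when genes of low count were kept, so a direction is not given. Of the 51 genes AT4G09800 (RPS18C) had the highest difference, at 0.60, and AT4G00810 (RPP1) the lowest, at -0.42. In otp90 all 51 genes were above their length bins, by a median of 0.50. The median was 0.39 for the large and 0.55 for the small subunit. Over all 51 genes it was 0.34 without Total otp90 replicate 3, with 50 above and 1 below, and 0.65 without replicate 2. The numbers were also 50 and 1 when genes of low count were kept, and against genes of like length and the same number of exons. No test was made on these medians, because the 51 genes share libraries.

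**Figure D3:**
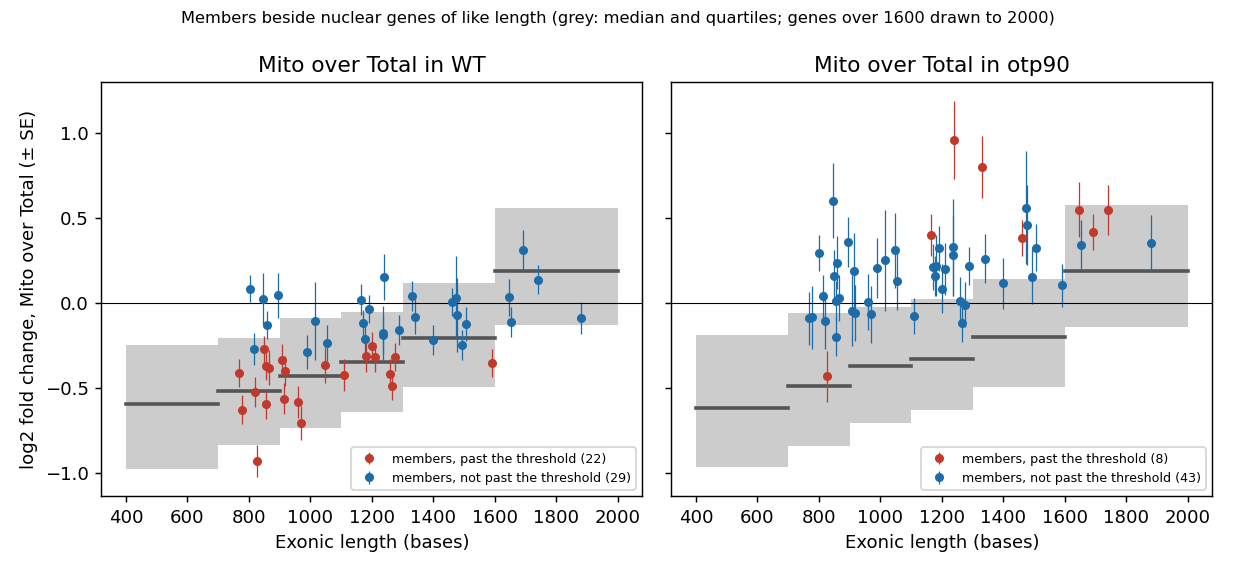
Log2 fold change of Mito over Total with its SE for the 51 genes against exonic length in bases, in WT (left) and otp90 (right); grey bars are the median and quartiles of other nuclear genes by length bin, and red points passed the threshold. In WT the points lie on both sides of the grey medians (median difference 0.10), and in otp90 all 51 lie above them (median difference 0.50).

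Other genes of translation were read from the same fits. Of 166 other cytosolic ribosomal protein genes 144 were tested, with 4 higher and 81 lower in Mito in WT (median -0.33) and 6 higher and 9 lower in otp90 (median 0.04). They ran from AT3G08520 (log2 fold change -0.94) to AT1G58684 (0.39) in WT, and from AT4G26230 (-0.59) to AT1G58684 (1.20) in otp90. Of 11 elongation factor genes, 2 were higher and 2 lower in WT and 7 higher and 1 lower in otp90. Among them AT1G56070, the gene of eEF2, which moves the ribosome along the message, was the highest in both (0.42 ± 0.10 and 0.69 ± 0.11), and AT5G12110, an eEF1B subunit, the lowest (-0.66 ± 0.21 and -0.60 ± 0.19). Of 13 genes of ribosome assembly and TOR signalling, 4 were higher and 1 lower in WT and 8 higher and 1 lower in otp90. The TOR kinase gene AT1G50030 was the highest in WT (1.04 ± 0.11), the fibrillarin gene AT4G25630 in otp90 (1.56 ± 0.46), and the S6 kinase gene AT3G08730 the lowest in both (-0.86 ± 0.13 and -0.81 ± 0.17). None of these lists was set against genes of like length, so their ratios include any difference that goes with length.

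Markers of cell types differed between the extracts too, 7 of 12 being higher and 5 lower in Mito in WT and 6 higher and 5 lower in otp90. The summed level of 3 markers of dividing cells was 7.25 to 8.97 CPM per kb in Mito libraries and 2.30 to 3.43 in Total libraries. The root gene PYK10 (AT3G09260) had 13.4 to 22.6 CPM per kb in Mito libraries and 0.0114 to 0.475 in Total libraries, although all libraries are labelled leaf. Its lowest count was 1 in Total WT and 3 in Total otp90, so its Total values reach the floor of 3 counts. The summed level of 3 mesophyll markers was 6040 to 6950 in Mito and 9780 to 13500 in Total. Epidermal markers had sums of 101 to 118 in Mito and 65.8 to 92.4 in Total, guard cell markers 3.80 to 4.93 and 3.50 to 5.56, and the phloem marker 19.1 to 29.2 and 39.3 to 49.5. The overlapping sums of the 2 guard cell markers do not mean that each was alike in both extracts. AT1G08810 (MYB60), 1 of the 2, had the lowest log2 fold change of the 12 markers, at -1.93 in WT and -1.56 in otp90. No marker was at 0 in any library. The part of these differences in the ratios of ribosomal protein genes was not tested.

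Which paralogue supplied a family changed little between extracts, but in some families by more than the spread between libraries. The share of a gene in its family was computed per library from counts per kb, so it does not depend on how libraries are scaled. Over 50 paralogues the median absolute move between Mito and Total came to 1.76 percentage points for WT and 1.52 points for otp90. In 26 paralogues the WT libraries of the extracts did not overlap, and in 22 the otp90 libraries did not. In a family of 2 genes both shares move by the same amount, so each such separation is counted for both genes, and no background over other genes was computed for shares. With 3 libraries against 3 an exact permutation test cannot go below p = 0.1. This is the p with all libraries of every share named next unless another is given. Moves with a library left out were not tested. No share passes a threshold of 0.05, and 50 shares were computed in each of 4 comparisons.

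With all libraries the largest move in either genotype was in RPS18. AT4G09800 (RPS18C) took 50.2, 49.1 and 49.4% of the family in Mito libraries of WT and 40.2, 37.8 and 40.05% in Total libraries of WT. In otp90 it took 50.7, 46.8 and 46.7% in Mito and 42.2, 38.8 and 44.8% in Total libraries. All Mito libraries were thus above all Total libraries, by 10.2 points in WT and 6.15 points in otp90 (exact permutation test, two-sided, p = 0.1 in each). The otp90 value was 4.58 points without Total otp90 replicate 2 and 7.58 without replicate 3. In otp90 the largest move passed to AT3G53870 (RPS3) without Mito otp90 replicate 1 (5.66 points) or Total otp90 replicate 2 (6.16 points). It passed to AT5G47700 (RPP1) without Mito otp90 replicate 3 (7.87 points). AT5G47700 itself moved by 4.75 points in otp90 with all libraries, where the extracts overlapped (exact permutation p = 0.4). Within RPS18, AT1G22780 fell back in return, from 30.8% ± 0.69 in Total WT to 23.7% ± 0.54 in Mito WT (SD, n = 3). In otp90 its values overlapped between the extracts (27.6% ± 2.32 in Total and 24.9% ± 0.85 in Mito, SD, n = 3, exact permutation p = 0.2).

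AT3G05590 of RPL18 was lower in Mito by -3.29 points in WT and -5.77 in otp90, AT3G11510 of RPS14 by -4.66 and -4.37, AT2G01250 of RPL7 by -4.38 and -4.49, and AT3G53870 of RPS3 by -3.07 and -5.09. In all 5 of these families the extracts did not overlap in either genotype for the gene named. The families were chosen for the size of these moves in the same libraries, so the lack of overlap is no separate support. The highest paralogue thus had the larger share in Mito in RPS18 and the larger share in Total in RPL18, RPS14, RPL7 and RPS3. The 3 genes of RPS18 were 802 (AT4G09800), 768 (AT1G34030) and 778 (AT1G22780) bases long, all in 1 length bin, with AT4G09800 the longest. AT3G05590, AT3G11510, AT2G01250 and AT3G53870 were each the shortest of their family. AT3G05590 had 1275 bases against 1508, and AT2G01250 had 1200 against 1880 and 1693. AT3G53870 had 1109 against 1209 and 1172, and AT3G11510 had 857 against 860 and 896. The part of length in these moves was not tested.

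**Figure D4:**
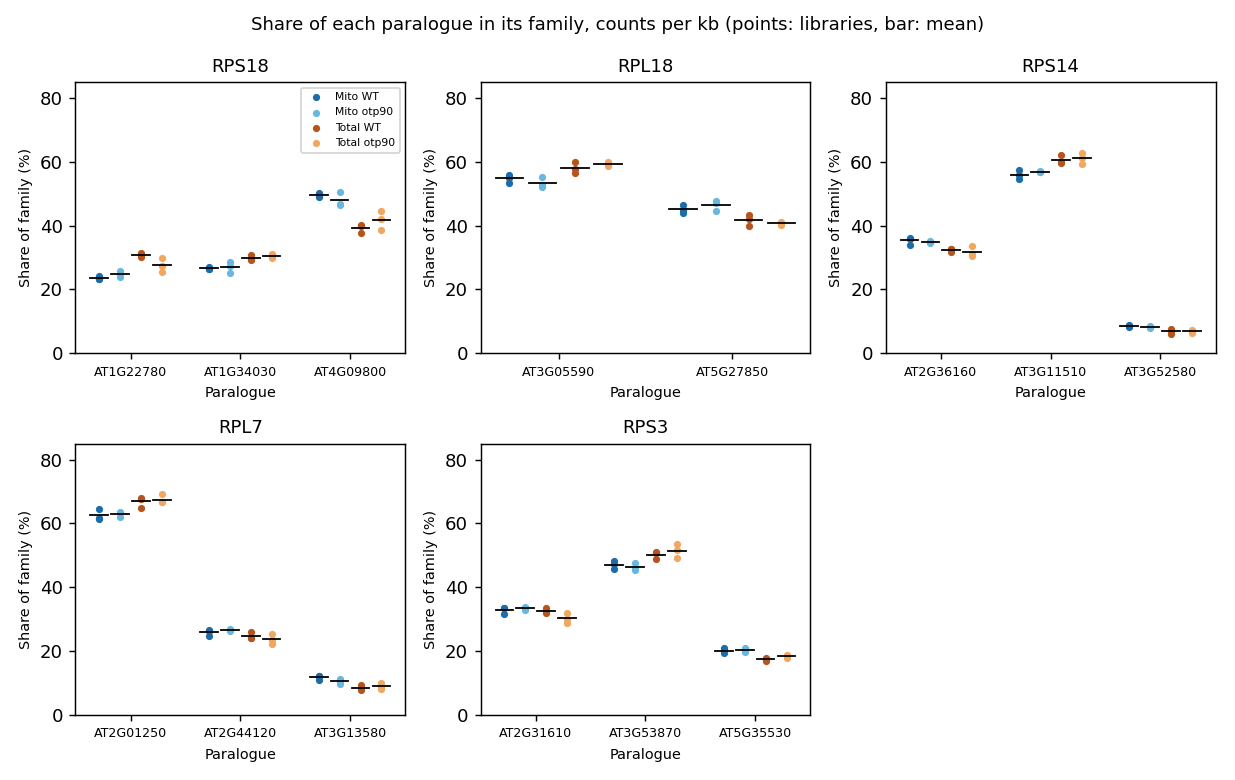
Share of each paralogue in its family, in percent of counts per kb, in 5 of the families with the largest move between extracts; points are libraries coloured by group and bars are group means. AT4G09800 stands at 46.7 to 50.7% in Mito and 37.8 to 44.8% in Total libraries.

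Between genotypes the shares moved less. The median absolute move was 0.64 points in Mito and 0.76 points in Total, and otp90 and WT did not overlap in 3 and 6 of 50 paralogues, with both genes counted in families of 2. Nothing is read from these counts. With all libraries the largest mean difference in Total was that of AT1G01100 (RPP1), at 54.9% ± 0.83 in WT and 58.4% ± 1.81 in otp90 (SD, n = 3), and AT5G47700 of the same family had 19.95% ± 0.70 and 16.5% ± 0.75. The largest in Mito was that of AT1G23290 (RPL27A), at 59.6% ± 1.86 in WT and 57.5% ± 0.91 in otp90, where the libraries overlapped (exact permutation test, p = 0.2).

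The effect of otp90 on the level of these genes did not pass the test in either extract. In Mito libraries 0 of 51 genes were called by edgeR and 0 by DESeq2, where 0.0422% of 16570 tested genes were higher and 0.0181% lower. The median log2 fold change of otp90 over WT was 0.12 and 49 of 51 genes were above 0. With library size alone the median was 0.028. At an unadjusted p under 0.05, 8 genes were higher and none lower, against 3.93 and 3.03% of all tested genes. All otp90 libraries were above all WT libraries in 26 of 51 genes and below them in none, against 7.56 and 5.47%. The count of 26 was made on TMM-scaled values and not with library size alone. TMM factors were 1.18 to 1.27 in Mito WT and 1.13 to 1.17 in Mito otp90, so it depends on the scaling. The genes share these libraries and are not independent of one another.

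The highest log2 fold changes in Mito were those of low or partly shared genes. AT2G40010 (RPP0) had 0.98, 0.78 and 1.27 CPM per kb in WT and 1.41, 1.21 and 1.45 in otp90, which overlap (log2 fold change 0.42 ± 0.20, adjusted p = 0.731, edgeR). AT1G58380 (0.37 ± 0.14) and AT1G26910 of RPL10 (0.36 ± 0.11) had adjusted p of 0.618 and 0.469 in edgeR. AT1G26910 had 2.91, 2.91 and 3.12 CPM per kb in WT and 3.48, 3.99 and 4.07 in otp90, without overlap in these TMM-scaled values alone. The lowest were AT3G13580 (-0.08 ± 0.08), AT3G52580 (-0.01 ± 0.08) and AT3G58700 (0.00 ± 0.09).

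In Total libraries 0 of 51 genes were called, and 0.0% of 15373 tested genes were higher and 0.0% lower; DESeq2 also called none of the 51. Here all 51 log2 fold changes were below 0, with a median of -0.27, where 49.4% of all tested genes were above 0. At an unadjusted p under 0.05, 3 genes were lower and none higher, against 1.35 and 1.63% of all tested genes. Total otp90 was below Total WT without overlap in 16 genes and above in none, against 4.33 and 4.74%. AT5G47700 (RPP1) had 28.3, 25.9 and 28.7 CPM per kb in the WT libraries and 19.4, 20.3 and 14.4 in the otp90 libraries, without overlap (log2 fold change -0.62 ± 0.16, unadjusted p = 0.00599 and adjusted p = 1.0 in edgeR). AT2G41840 (-0.54 ± 0.17) and AT2G42740 (-0.48 ± 0.24) followed. Values near 0 were those of AT5G35530 of RPS3 (-0.15 ± 0.15) and AT2G40010 (-0.09 ± 0.25). The median of the 51 was -0.17 without Total otp90 replicate 3 and -0.44 without replicate 2. Without replicate 3 AT2G40010 was above 0, so the 51 did not all stay below 0. The 16 genes without overlap were counted with all libraries and TMM-scaled values only. Genes that share libraries are not independent of one another.

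The difference of these effects was tested as an interaction of extract and genotype in 1 fit of all 12 libraries. No gene passed among the 51, nor among all 16825 tested (0.0% higher and 0.0% lower), by edgeR, and DESeq2 called none of the 51. All 51 estimates were above 0, with a median of 0.40 on the log2 scale. At an unadjusted p under 0.05 were 28 of the 51 genes, all above 0, against 3.21% of all tested genes. These genes share all 12 libraries and are not independent of one another. The highest were AT1G58380 (0.79 ± 0.28), AT2G41840 (0.75 ± 0.21) and AT5G47700 (0.74 ± 0.26), each with an adjusted p of 0.93 in edgeR, and the lowest was AT3G13580 (0.09 ± 0.15). Large and small subunit genes had medians of 0.41 and 0.37. Leaving out 1 library at a time gave medians of 0.28 to 0.56 and no call.

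**Figure D5:**
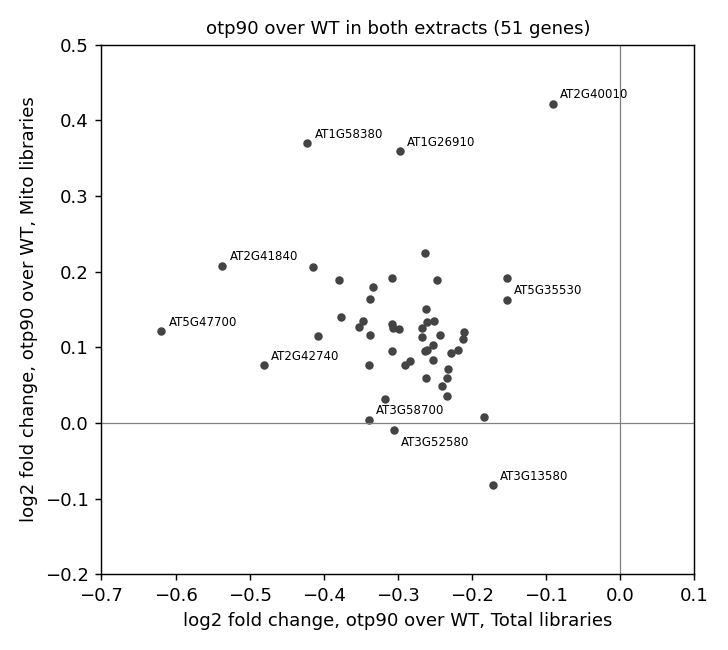
Log2 fold change of otp90 over WT in Mito libraries (vertical) against Total libraries (horizontal), with 1 point per gene and some of the highest and lowest genes of each axis named. All 51 points lie left of 0 on the Total axis and 49 lie above 0 on the Mito axis, and no gene passed the adjusted threshold in either.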

How the data were processed

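Leaf RNA of WT and otp90 was measured in 12 libraries, grouped by the labels. The deposited values are raw counts per gene, which the authors made with featureCounts 1.6.3 (exons, reverse strand, multi-mapping reads counted in every gene matched) from STAR alignments in which no intron was opened, so reads across exon junctions and shared reads bear on short, spliced paralogues. Members, lists and named genes (the highest and lowest log2 fold changes, the highest paralogue per family, the 6 families with the largest moves) were chosen with earlier results of these data known; some members are not reported singly here. Counts were tested with edgeR 4.0.16 in R 4.3.3 (TMM, quasi-likelihood, genes kept where 3 or more libraries exceeded 1 CPM, all genes adjusted together); SE is the log2 coefficient over the root of F. DESeq2 1.42.0 was an alternative, and the test was checked on simulated data. Replicate libraries differed beyond sampling noise in every pair (chi-square per degree of freedom 12.36 to 104.04). Same-numbered deviations correlated at 0.44, 0.423 and 0.118 between genotypes in Mito, which may pair them, and not consistently elsewhere (-0.445 to 0.335). The labels give no pairing. The main fits and permutation tests did not use one, and a block by replicate number was an alternative fit. Coding identity and promoters came from the TAIR10.1 genome with RefSeq annotation, in which all 51 genes have the span of the count tables; protein sequences were not used here. Alternatives were other scalings, filters and fits and the omission of each library; shares per 75-base window and the block with nuclear scaling were added after seeing the data.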

Additional observations from a re-analysis of the deposited data

How the results depend on the processing

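Scaling moved the ratios between extracts and their calls. With library size alone the median log2 fold change of all nuclear genes in Mito over Total rose to 0.48 in WT and 0.47 in otp90, and that of the 51 genes to 0.24 and 0.66, with 10 higher and 1 lower in WT and 41 higher and 0 lower in otp90; AT4G00810, AT1G01100, AT1G14320 and AT1G34030 then had 0.024, 0.26, 0.34 and 0.37 in otp90. For otp90 over WT in Mito that scaling gave a median of 0.028, with AT3G58700 at -0.082. One fit of all 12 libraries gave 1 higher in WT and 12 higher in otp90. The replicate block gave 15 lower in WT, and 7 higher and 0 lower in otp90 (0 lower too with nuclear scaling), where AT4G00810 had an adjusted p of 0.0759 by edgeR; it changed no call between genotypes and none in the interaction. Against genes of like length and level the WT difference was 0.17, and without a filter -0.003 (otp90 0.38), whereas library size alone left it at 0.10 and 0.50. As shares of all counts, log2 ratios of the summed level were 0.28 (Mito over Total, WT; -0.04 as shares of nuclear counts), 0.67 (otp90; 0.32) and 0.026 (otp90 over WT in Mito; 0.078). The cause was not tested.

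Leaving out 1 library at a time gave 0 to 1 higher and 9 to 27 lower in WT (median -0.303 to -0.184), 1 to 21 higher and 0 to 4 lower in otp90 (median -0.016 to 0.307), and a WT log2 ratio of summed levels of -0.095 to 0.03, above 0 without Total WT replicate 2. Among named genes, none of them called, it turned signs for AT3G52580 in WT (-0.095, without Total WT replicate 3, to 0.106), for AT1G34030 (-0.297 to 0.023) in otp90 without Total otp90 replicate 2, for AT2G40010 (-0.295 to 0.103) in Total without Total otp90 replicate 3, and in Mito between genotypes for AT3G52580 (-0.034 to 0.022, above 0 without replicate 2 of either genotype) and AT3G58700 (-0.058 to 0.061, below 0 without WT replicate 3 or otp90 replicate 1 or 3). Median moves of paralogue shares stayed within their spread when counts were not divided by length or were divided by exact 75-base windows.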
